A study of Mus musculus with 4 samples.

Results

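The long pentraxin gene Ptx3 and 8 complement genes known from fibroblasts (C1ra, C1s1, C3, C4b, Serping1, Masp1, Cd55 and Cd59a) were followed in nuclear RNA of mouse NIH-3T3 cells, an established line of embryonic fibroblasts. The genes were taken by symbol, which gave 11 transcript rows of the 40739 in the authors' deposited table, or 9 genes of 25177. The genes were chosen by family, with their log2 fold changes between doxycycline and solvent already known, so their values in this comparison are a description and carry no test. All the cells carried H2B-mCherry, the rtTA3G transactivator and a CDX2 transgene under the doxycycline-responsive TRE3G promoter. There were 2 libraries from cells given doxycycline (500 ng/ml, 6 h) and 2 libraries from cells given solvent alone for the same 6 h, each from 500000 cells. The table holds 1 fold change and 1 mean level per transcript, with no value for single libraries, so group values below are geometric means worked out from these.

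Complement is a cascade of plasma proteins that tags and lyses targets, started by C1q (the classical route), by lectins (the lectin route) or by spontaneous turnover of C3 (the alternative route). The liver makes most of it, while fibroblasts are known to secrete several components locally when stimulated by cytokines. PTX3 is a secreted pattern recognition protein that binds C1q and factor H and is also built into hyaluronan matrix, and its gene is a known target of NF-kappaB.

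Of the 9 genes, 3 averaged 10 or more counts per library and were tested, 5 had reads below that floor, and Cd55 had none. These counts assume that 0.5 was added per library. Had 1 been added, C4b and C1ra would also pass the floor, and the authors' adjusted p of each is above 0.05. The largest difference was that of Ptx3, which was 4.87-fold lower with doxycycline (95% interval 4.19 to 5.67). The other genes above the floor, Masp1 and Cd59a, were 1.20-fold and 1.14-fold higher, with intervals that included no change. By the call rule used throughout (an adjusted p of the authors under 0.05 and the floor of 10 counts), 1 of the 3 tested genes was lower and 0 were higher, beside 24.7% of all 12355 tested genes called in either direction, 13.4% of them lower and 11.3% higher. Nothing is read from that share, since the genes were chosen with this contrast known.

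Promoter windows of RefSeq (GRCm38.p6, 250 bases before to 50 after each annotated start) were found for 6 of the 9 genes, in 7 windows. They are printed for Ptx3, whose level differed most, and for C1ra and C3, the 2 genes whose windows hold the CDX core TTTAT on either strand. Capitals mark the NF-kappaB consensus in Ptx3, and in C1ra and C3 the CDX core, which in C1ra extends at its second match to the longer TTTATG.
Ptx3, chr3:66219637-66219936, plus strand: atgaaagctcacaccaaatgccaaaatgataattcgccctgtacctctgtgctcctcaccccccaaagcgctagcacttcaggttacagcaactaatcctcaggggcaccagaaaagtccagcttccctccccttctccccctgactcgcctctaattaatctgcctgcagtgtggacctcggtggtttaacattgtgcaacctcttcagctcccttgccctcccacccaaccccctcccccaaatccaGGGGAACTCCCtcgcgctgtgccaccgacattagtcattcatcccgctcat
C1ra, chr6:124512371-124512670, plus strand: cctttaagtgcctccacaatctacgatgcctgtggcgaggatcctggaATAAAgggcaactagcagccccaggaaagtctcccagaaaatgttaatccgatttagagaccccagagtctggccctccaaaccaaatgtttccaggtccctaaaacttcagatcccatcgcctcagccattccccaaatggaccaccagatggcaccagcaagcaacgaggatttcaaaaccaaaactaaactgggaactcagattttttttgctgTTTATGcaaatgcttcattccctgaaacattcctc
C3, chr17:57228087-57228386, minus strand: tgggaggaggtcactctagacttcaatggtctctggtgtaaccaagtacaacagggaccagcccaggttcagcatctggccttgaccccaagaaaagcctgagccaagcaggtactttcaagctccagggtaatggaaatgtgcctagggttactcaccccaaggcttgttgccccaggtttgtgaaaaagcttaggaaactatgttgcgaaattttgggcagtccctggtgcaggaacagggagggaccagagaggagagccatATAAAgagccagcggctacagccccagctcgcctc
The CDX core is found in 40.0% of all 32851 promoter windows and TTTATG, which contains it, in 11.9%, so neither is rare. The Ptx3 window holds neither. It carries 2 overlapping matches to the NF-kappaB consensus, a consensus looked for after the sequence had been read, at the annotated start itself, and 8.46% of all windows hold at least 1. C1ra has 2 matches to the core and C3 has 1, which reads ATAAA in its printed strand and lies downstream of the annotated start. These are matches of letters and say nothing of binding.

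Ptx3 (NM_008987, mm10 chr3:66219887-66225806, plus strand, 3 exons in GENCODE M21) had the highest level per kb of exon of the 9 genes in either group. Its group mean level was 3.20 CPM with doxycycline, against 15.7 CPM with solvent, or 157 against 666 counts per library as geometric means. In the authors' deposited table its log2 fold change was -2.29 ± 0.11 (± standard error; n = 2 libraries per group). Only 4 of the tested genes had a lower fold change, and by size of fall it ranked 2 among the 10941 genes that averaged 1 CPM or more. Its mean level over the libraries exceeded that of 31.9% of tested genes. Fewer cells with Ptx3 RNA and less of it per cell cannot be told apart in such bulk libraries.

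The span of Ptx3 lies inside that of Veph1, on the opposite strand. None of the 24 exon records of Veph1 in GENCODE M21 overlaps it (0 overlaps), and the Veph1 row of the authors' deposited table has no reads in any library. The tested genes with the fold changes nearest to that of Ptx3 were Sema7a, Hoxa3, Ccl7, Vasn and Tmprss11f. They lay 0.048, 0.057, 0.16, 0.16 and 0.18 log2 units away, a likeness in 1 comparison over 4 libraries.

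**Figure D1:**
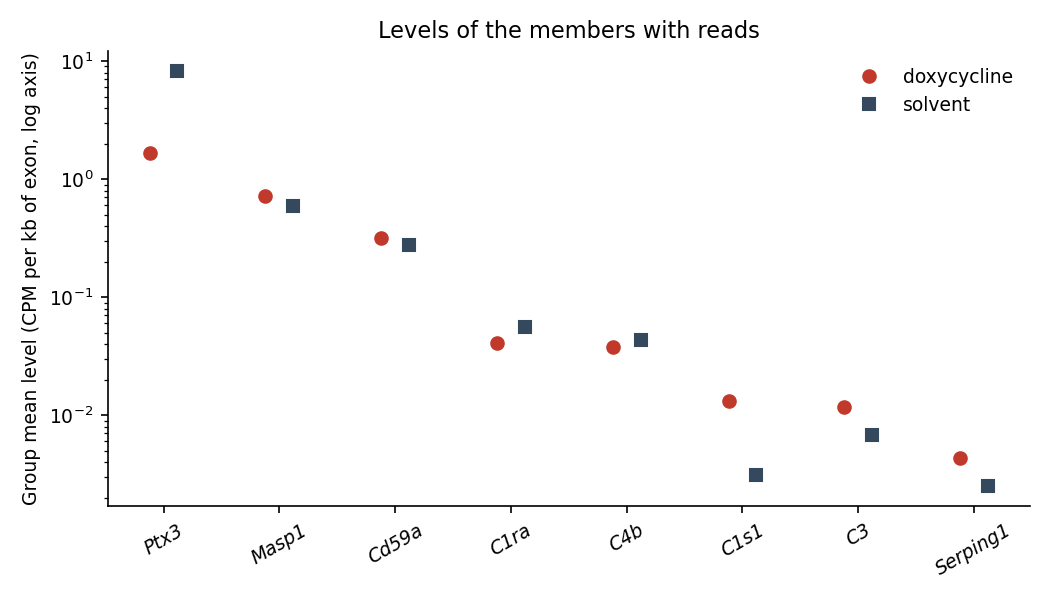
Group mean level of each gene with reads, in CPM per kb of exon on a log axis, with doxycycline (circles) and with solvent (squares); libraries are not shown singly and there are no error bars, and Cd55, without reads, is left out. Ptx3 stands at 1.67 with doxycycline and 8.17 with solvent, and every gene other than Ptx3 lies below 1 CPM per kb in both groups.

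Per kb of exon, the order of levels was Ptx3 (1.67 CPM per kb with doxycycline, 8.17 with solvent), Masp1 (0.715 and 0.594), Cd59a (0.319 and 0.278), then C1ra (0.0412 and 0.0562) and C4b (0.0379 and 0.0434). C1ra and C4b cannot be ranked against each other at so few counts. Ptx3 exceeded Masp1 2.34-fold per kb with doxycycline and 13.8-fold with solvent. The ratio differed between groups through Ptx3, since Masp1 was close to equal in both.

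Masp1 encodes the MASP serine proteases of the lectin route, and of the 8 complement genes it had the highest level per kb. Its row of highest level (NM_001359083, chr16:23468361-23520815, minus strand) stood at 2.81 CPM with doxycycline and 2.33 CPM with solvent. The log2 fold change in the authors' deposited table was 0.27 ± 0.17, with a 95% interval of 0.957-fold to 1.51-fold. That interval leaves out a change of 2-fold, but its standard error is pooled over genes and hardly reflects the replicates of Masp1. A change of 2-fold is therefore not excluded. A further row (NM_008555, chr16:23451785-23520815) stood at 1.27 CPM with doxycycline and 0.932 CPM with solvent, a log2 fold change of 0.44 ± 0.24 in the authors' deposited table. The transcripts share 9 exons exactly, of 11 in NM_001359083 and 16 in NM_008555, so the rows can hold the same reads and are not independent.

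Cd59a encodes a membrane-anchored inhibitor of the terminal complex (NM_007652, chr2:104095801-104115410, plus strand). It stood at 0.556 CPM with doxycycline and 0.484 CPM with solvent, or 27.3 and 20.6 counts per library. Its log2 fold change in the authors' deposited table was 0.19 ± 0.26, and the 95% interval ran from 0.803-fold to 1.62-fold. Cd55, the gene of decay-accelerating factor, which takes apart C3 convertases (NM_010016, chr1:130439026-130462744), had 0 counts in all 4 libraries. A count of 0 allows up to 0.0656 CPM per library at 3 counts.

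The classical route proteases and C4 were close to the floor or below it. C4b (NM_009780, chr17:34728381-34743897), whose product is cleaved by C1s to build the C3 convertase, averaged 9.85 counts over the libraries, just under the floor of 10. It stood at 9.89 counts (0.201 CPM) with doxycycline and 9.81 counts (0.231 CPM) with solvent, with a log2 fold change of -0.20 ± 0.37 in the authors' deposited table. C1ra (NM_023143, chr6:124512621-124523440), the protease that cleaves C1s, stood at 5.55 counts with doxycycline and 6.55 counts with solvent. Its log2 fold change in the authors' deposited table was -0.43 ± 0.41, and its interval of 0.428-fold to 1.29-fold shows how little these counts can tell.

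**Figure D2:**
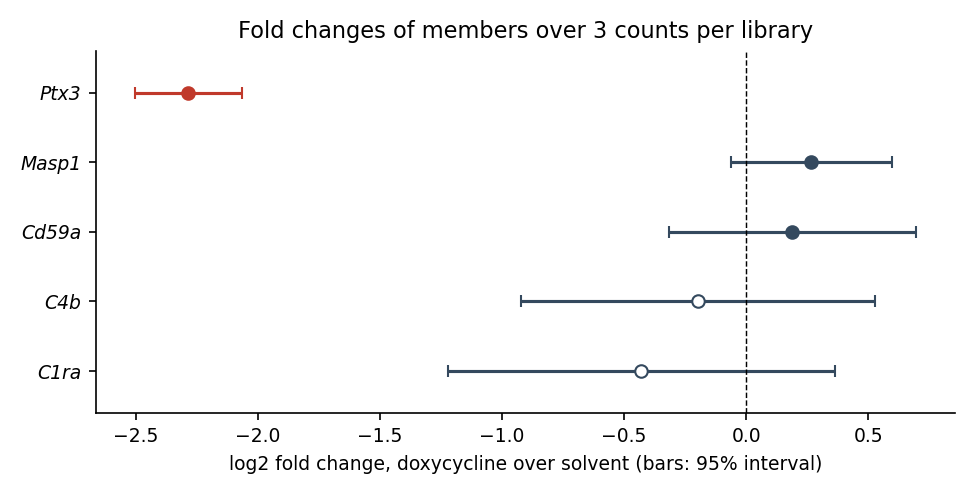
Log2 fold change, doxycycline over solvent, in the authors' deposited table for the 5 genes with over 3 counts per library in at least 1 group; bars are 95% intervals and open circles are genes under the floor of 10 counts. The interval of Ptx3 runs from -2.50 to -2.07, and those of Masp1, Cd59a, C4b and C1ra all include 0.

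C1s1, C3 and Serping1 had group geometric means of under 3 counts per library. C1s1, whose product cleaves C4 and C2, stood at 1.90 counts per library with doxycycline and 0.385 with solvent, identical in its 2 rows (NM_144938 and NM_001097617). C3, the central component of all routes, stood at 2.94 counts with doxycycline and 1.45 with solvent over an exon length of 5058 bases. A geometric mean does not fix the total. The means over all 4 libraries, taken alone, allow totals of 4.0 to 35.5 counts for C1s1 and 8.5 to 359.5 for C3. The highest totals would need all reads in 1 library. Both groups had reads of C1s1 and of C3, so their true totals lie below those upper limits. For Serping1, the gene of the C1 inhibitor, the mean over all 4 libraries, taken alone, allows a total of 1.5 or 2.5 counts. The higher total would need all reads in 1 library. Both groups had reads of Serping1, which leaves a total of 1.5 counts. The totals given for C1s1, C3 and Serping1 all rest on the count assumed to have been added per library, and would be larger had more been added. No fold change is given for these 3 genes, because neither group mean exceeded 3 counts per library.

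Several of these genes have related copies that share stretches of sequence. Of 50-base windows, 48.0% of the longest GENCODE transcript of C1ra recur exactly in C1rb, 35.2% of that of C4b in C4a, 24.3% of that of C1s1 in C1s2, 10.7% of that of Cd55 in Cd55b and 3.98% of that of Cd59a in Cd59b. The sources used here do not say how reads that match both copies were assigned, and the values of C1ra, C4b and C1s1 are uncertain to that extent. C4a had the higher level of the C4 rows, at 0.198 CPM per kb with doxycycline and 0.258 CPM per kb with solvent, with a log2 fold change of -0.38 ± 0.16 and an adjusted p of 0.0999 in the authors' deposited table.

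The wider complement system was mostly silent or showed no call. Of 53 further complement genes, 18 had no reads, 18 had reads under the floor and 17 were tested; 1 was called higher and 1 lower in the authors' deposited table, beside 24.7% called over all genes. At an unadjusted p under 0.05 there were 6. This list was chosen with earlier results of these data known, so nothing is read from these counts. Their median log2 fold change was 0.041, against -0.0011 over all genes tested. The called pair was Thbd and C1rl. Thbd, which encodes thrombomodulin, a cofactor of protein C activation that also restrains complement at cell surfaces, fell 2.31-fold, to 20.4 CPM with doxycycline, against 47.2 CPM with solvent (log2 fold change -1.21 ± 0.073 in the authors' deposited table). C1rl, which encodes a C1r-like protease, rose 3.12-fold, to 0.401 CPM with doxycycline, against 0.120 CPM with solvent (log2 fold change 1.64 ± 0.37, adjusted p 1.59e-04 in the authors' deposited table). Its mean was 10.1 counts per library, so it barely passed the floor.

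**Figure D3:**
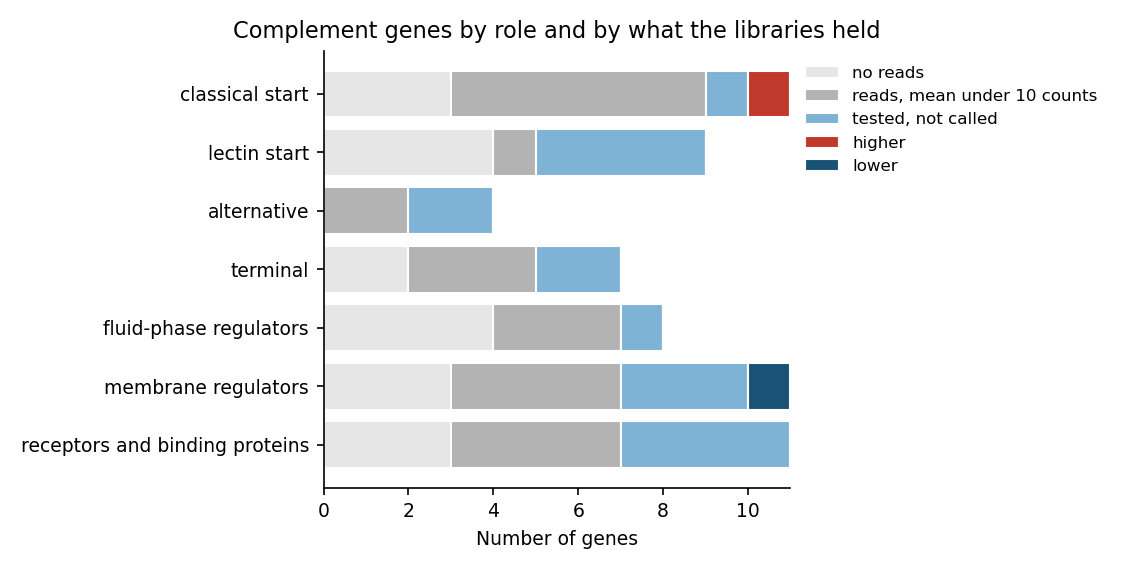
Number of complement genes (the 8 complement genes above and the 53 further ones) in each role, split by whether they had no reads, reads under a mean of 10 counts, or were tested and not called, higher or lower with doxycycline. The 1 gene called higher is in the classical group and the 1 called lower among the membrane regulators.

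By role, with the 8 genes included, the classical group had 2 tested genes of 11, C1rl and C4a, and the C1q genes C1qa, C1qb and C1qc had no reads. The lectin group had 4 tested of 9 and 0 calls: Masp2, a lectin-route protease, stood at -0.30 ± 0.12 and the scavenger collectin Colec12 at 0.098 ± 0.065 (log2 fold changes in the authors' deposited table). Of the alternative route, Cfb and Cfp (properdin) were tested, at 0.20 ± 0.23 and 0.42 ± 0.20 log2 units in the authors' deposited table, and neither was called. Of the 7 terminal genes Hc, the mouse gene of C5, and C8g were tested and not called, Hc at 0.912 CPM per kb with doxycycline and 0.883 CPM per kb with solvent. Of the membrane regulators, Cr1l, the gene of the rodent C3 regulator Crry, had a higher level than Cd59a, at 18.5 CPM per kb with doxycycline and 18.3 CPM per kb with solvent (log2 fold change 0.014 ± 0.072 in the authors' deposited table). Of the other pentraxins, Crp, Apcs, Nptx1 and Nptx2 had no reads, Ptx4 was under the floor, and Nptxr, a neuronal pentraxin receptor gene, stood at 155 CPM with doxycycline and 159 CPM with solvent (log2 fold change -0.041 ± 0.063 in the authors' deposited table).

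Several genes of the hyaluronan matrix, into which PTX3 is built, were lower with doxycycline. The list of 14 genes also holds Fgf2, a growth factor gene. Of the 14 listed, 7 were tested, of which 5 fell, 1 (Fgf2) rose and 1 was not called in the authors' deposited table. Over all genes tested, 24.7% were called, 13.4% lower and 11.3% higher. The list was chosen with earlier results of these data known, so nothing is read from these shares. The median log2 fold change of the 7 was -0.55. Has2, which encodes a hyaluronan synthase, fell 3.18-fold, to 6.60 CPM with doxycycline, against 21.0 CPM with solvent (-1.67 ± 0.091 log2 units in the authors' deposited table). The other synthase genes fell by less, Has1 with -0.79 ± 0.23 and Has3 with -0.55 ± 0.16 log2 units in the authors' deposited table. Tnfaip6, whose product TSG-6 binds PTX3 and helps to cross-link hyaluronan, fell to 6.56 CPM with doxycycline, against 9.60 CPM with solvent (-0.55 ± 0.096 log2 units in the authors' deposited table). Vcan, the gene of the proteoglycan versican, fell slightly (-0.16 ± 0.058 log2 units, adjusted p 0.0369 in the authors' deposited table), a call lost when cytosolic ribosomal protein genes are set to a median of 0. The hyaluronan receptor gene Cd44 had a similar value without a call (-0.16 ± 0.060 log2 units, adjusted p 0.0592 in the authors' deposited table). Fgf2, a growth factor that PTX3 binds, rose 1.92-fold, to 0.931 CPM with doxycycline, against 0.479 CPM with solvent (0.94 ± 0.27 log2 units in the authors' deposited table). When each standard error was made 2.08 times larger, a stricter test, Has2 alone of this list was still called, as was Thbd but not C1rl of the complement list.

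**Figure D4:**
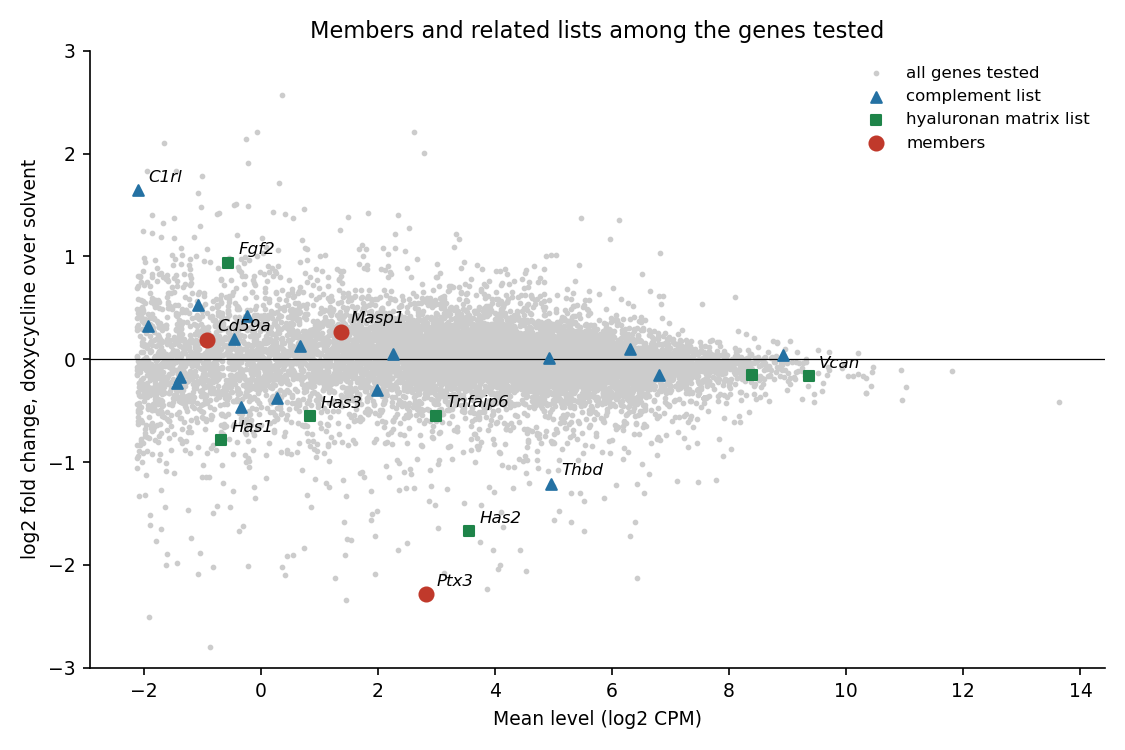
Log2 fold change, doxycycline over solvent, against mean log2 CPM in the authors' deposited table; grey dots are the 12355 genes tested, with 2 beyond the plotted range, circles the genes of the opening, triangles the further complement genes and squares the hyaluronan matrix genes. The squares include Fgf2, a growth factor gene of that list. Ptx3 lies near the lower edge of the cloud at its level, with Has2 and Thbd at -1.67 and -1.21, while most complement genes lie near 0.

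The cells carried fibroblast marker RNA at higher levels than markers of macrophages and hepatocytes, other sources of complement. All 10 fibroblast markers had reads, with Col1a1 at 1903 CPM with doxycycline and 2287 CPM with solvent; 6 of them fell and 1 rose in the authors' deposited table. Of 7 macrophage markers 5 had reads, with a summed level of 2.20 CPM with doxycycline and 2.42 CPM with solvent, and Adgre1 and Fcgr1 were at 0. Most of that level was Lyz2 (1.24 CPM with doxycycline, 1.18 with solvent) and Cd68 (0.826 and 0.943 CPM), and Ptprc, Csf1r and Mpeg1 were under the floor. The 8 complement genes of the opening summed to a like level, 3.79 CPM with doxycycline and 3.25 CPM with solvent. Masp1 made up most of it, at 2.81 CPM with doxycycline and 2.33 CPM with solvent. The cell source of the RNA of the 8 complement genes was not tested. Of 6 hepatocyte markers 2 had reads, with a summed level of 0.0201 CPM with doxycycline and 0.0199 CPM with solvent, and Alb, Ttr, Fgb and Tat were at 0. Endothelial markers, which bear on Thbd, had a summed level of 3.91 CPM with doxycycline and 4.58 CPM with solvent (4 of 4 with reads). Most of it was Cdh5, at 3.56 CPM with doxycycline and 4.17 CPM with solvent, and Pecam1, Kdr and Tek were under the floor. Of 5 epithelial markers 3 had reads, at a summed 0.469 CPM with doxycycline and 1.43 CPM with solvent, and Krt18 and Cldn4 were at 0. Nearly all of that sum was Cdh1, at 0.453 CPM with doxycycline and 1.42 CPM with solvent. Cdh1 was called lower (log2 fold change -1.62 ± 0.22 in the authors' deposited table). The part of other cell types in the falls of Ptx3, Thbd and Has2 was not tested.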

How the data were processed

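Nuclear RNA of 4 directional libraries was compared, 2 with doxycycline and 2 with solvent. The dose is 500 ng/ml in the extraction protocol and the same figure per microlitre in the treatment protocol, per the labels. STAR 2.7.1a, SAMtools 1.10, Picard, HOMER 4.10, edgeR, limma and mm10 are named, without roles, in the submitters' processing notes. The authors' deposited table holds, per the file headers, limma's log2 fold changes, mean log2 CPM, a moderated t score, p-values and adjusted p-values; the log-odds score was not used, and the authors' deposited table has other columns for position and exon length. Counts per library were not analysed here, so the count tests planned gave way to the authors' own test.

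From these values, standard errors were computed as fold change over t, and intervals assume normal errors. Low mean levels are whole steps above the level of rows without reads (100% of 14756 rows, tolerance 0.01). Group means were obtained by taking off the 0.5 counts that limma's voom adds per library. This assumes that voom was used and that both libraries of a group weigh alike. With 0.5 added, 643 rows lie 1 step up, or 0.5 counts in 1 library, which whole counts cannot give. Had 1 been added, counts would be 2 times as large and CPM the same. More genes, C4b and C1ra among them, would then pass the floor of 10 counts. Whether counts were fractional or more than 0.5 was added was not tested. Rows without reads imply effective libraries of about 49100000 counts with doxycycline and 42500000 with solvent. A polynomial in level and fold explains 99.6% of the variation in log standard errors, so these are pooled over genes and hardly reflect the replicates of a single gene. The labels do not say that replicates are separate cultures. Each gene stands by its transcript of highest mean level, and genes averaging at least 10 counts per library (0.230 CPM) were tested. Genes, lists, roles and the rule for named genes (all members, called genes of the lists, overlapping genes and the 5 fold changes nearest to Ptx3) were chosen with earlier results of these data known. Other genes of the roles and neighbours were named after their values were seen. Recovery of group means and the adjustment were tested on simulated data. Python 3.11.15, numpy 2.4.6, pandas 2.3.3 and scipy 1.17.1 were used.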

Additional observations from a re-analysis of the deposited data

How the results depend on the processing

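The call of Ptx3 held under all 8 alternatives (no floor, a floor of 50 counts, the longest transcript, p adjusted over the genes tested, widened standard errors, ribosomal protein scaling, adjusted p under 0.01, and the added count taken off), with log2 fold changes of -2.29 to -2.24, and no other member was called. Several of these could not change the call of Ptx3. It has a single transcript row and lay above every floor. Taking off the added count kept the deposited adjusted p. No paired analysis was possible because the table holds no values per library; for the same reason leaving out libraries and the DESeq2 fit were not run. With standard errors widened 2.08-fold, the robust SD of t, 0 complement genes were higher, and 0 hyaluronan genes higher and 1 lower (Has2), beside 4.66% of all genes called. A floor of 50 counts left 0 complement and 0 hyaluronan genes higher. Without a floor, 2 genes of the hyaluronan matrix list were higher (Fgf2 and Itih2), beside 13.1% of all genes called. Adjusting over the genes tested called 2 complement genes lower (Thbd and Masp2). Ribosomal protein scaling moved the share of rises among all called genes to 60.3%, against 45.7% as deposited. The widened errors hold real changes as well as noise. The other 84 values moved by less than their standard error or by less than 1.5 times. Many of them could not move. Settings that change only the floor, the adjustment, the threshold or the standard errors leave log2 fold changes as they are. Depth limits the low genes: at the 9.85 counts of C4b, the 95% interval runs from 0.528-fold to 1.44-fold.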

Other observations

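Genes beside the complement loci were also examined, as values with no explanation. Within 100 kb of the 9 genes lay 47 others, of which 26 were tested, 5 called higher and 1 lower in the authors' deposited table, beside 24.7% called over all genes. The 1 that fell was Tnxb, the gene of the matrix protein tenascin-X, whose row ends 8.57 kb from that of C4b. It stood at 8.0 CPM with doxycycline and 13.0 CPM with solvent (log2 fold change -0.70 ± 0.085 in the authors' deposited table), where C4b stood at 0.201 CPM with doxycycline and 0.231 CPM with solvent.

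C1rl, described above, lies 1.98 kb from C1ra on the same strand and 19.7 kb from C1s1. At 23.4 kb from Serping1, Ube2l6, the gene of an interferon-inducible conjugating enzyme for ISG15, rose to 4.1 CPM with doxycycline, against 2.68 CPM with solvent (0.61 ± 0.13 log2 units in the authors' deposited table). At 96.2 kb from C3, Tnfsf9, which encodes the ligand of 4-1BB, rose to 13.4 CPM with doxycycline, against 8.55 CPM with solvent (0.65 ± 0.091 log2 units in the authors' deposited table). Trip10 lay nearer to C3, at 21.3 kb, and was also called higher (0.23 ± 0.072 log2 units in the authors' deposited table). C3 itself stood at 0.0598 CPM with doxycycline and 0.0341 CPM with solvent. Ptx3 has 1 neighbour within 100 kb, Veph1, which had no reads.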
